A study of Mus musculus with 30 samples.

Results

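The miR-148 and miR-152 family of the mouse consists of 3 microRNA genes, Mir148a, Mir148b and Mir152. They were taken by symbol from the authors' deposited tables for 5 organs, each of which lists 2194 named small RNA genes, and all 3 were found in every table. The study sequenced small RNA from 3 male Ftsj1-deficient mice, labelled Ftsj1_DF, and 3 male wild-type mice, labelled WT, all 4 months of age and untreated, with whole brain, heart, kidney, liver and spleen taken from each. The Ftsj1 protein methylates the ribose of certain transfer RNA nucleotides, and the comparison asks how its loss alters microRNAs in each organ. The 6 mice were brothers from 2 sets, each with both genotypes, and every mouse gave 1 library per organ, so that each organ has 6 libraries. How the deficiency was made is not given in the sources used here, and the genotype labels could not be checked, because the tables do not count the Ftsj1 mRNA.

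A microRNA is cut from a hairpin precursor and guides the silencing complex to mRNAs that pair with its seed, the bases near its 5′ end. MicroRNAs with the same seed can recognise the same sites, and for this reason the levels of all family members bear on how much of the shared seed a cell holds. miR-148a is abundant in hepatocytes, where it lowers the low-density lipoprotein receptor, and in pancreas. miR-148a and miR-152 are known to lower the DNA methyltransferase Dnmt1.

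The 3p mature sequences are shown because the shared seed is what joins the members into a family. They come from RefSeq on GRCm38.p6, where all 3 members were matched by symbol, are written 5′ to 3′ and have the seed, bases 2 to 8, in capitals.
mmu-miR-148a-3p: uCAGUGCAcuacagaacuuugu
mmu-miR-148b-3p: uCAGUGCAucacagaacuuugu
mmu-miR-152-3p: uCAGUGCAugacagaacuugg

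The 3 sequences have 1 seed in common, CAGUGCA, and no other gene among the 1738 mature sequences of that table carries it at bases 2 to 8. Counted from 1 at the 5′ end, miR-148b-3p differs from miR-148a-3p by C9U and U10C and matches it at the other 20 of 22 positions. miR-152-3p differs from miR-148a-3p by C9U, U10G and U20G over the 21 positions that both have, and is 1 base shorter. From miR-148b-3p it differs by C10G and U20G. The last 6 bases of the seed, AGUGCA, begin 1 base earlier, at bases 2 to 7, in 7 other mature microRNAs, among them miR-130a-3p, miR-130b-3p and miR-301a-3p.

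The hairpins are shown because the tables count reads per precursor and do not separate its arms, so that a level can hold reads of either arm. The 3p mature sequence is in capitals.
Mir148a: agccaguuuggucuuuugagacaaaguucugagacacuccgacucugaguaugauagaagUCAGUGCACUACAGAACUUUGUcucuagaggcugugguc
Mir148b: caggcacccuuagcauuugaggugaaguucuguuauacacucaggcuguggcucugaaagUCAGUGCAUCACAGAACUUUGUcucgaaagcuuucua
Mir152: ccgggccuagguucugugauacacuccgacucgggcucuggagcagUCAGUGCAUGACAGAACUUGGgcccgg

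The Mir148a hairpin is 99 bases long and lies on the minus strand of chromosome 6, outside any other gene of the GENCODE annotation on GRCm38. The Mir148b hairpin, 97 bases long, lies on chromosome 15 in an intron of Copz1, on the same strand as that gene. The Mir152 hairpin, 73 bases long, lies on chromosome 11 in an intron of Copz2, again on the strand of its host. Copz1 and Copz2 encode the zeta subunits of the coat that surrounds vesicles of the Golgi apparatus.

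The deposited level of a gene is the mean over the 6 libraries of an organ, both genotypes together, of read counts divided by the library's size factor, a measure of relative depth. These means summed to between 8511372 in heart and 21787131 in kidney. Values per library were not used here, so a member's level is given as the authors' mean and as its share of the organ total, and the spread between libraries is the standard deviation implied by the standard error of the deposited fold change. Relative depth was recovered from the lowest means and ranged within an organ from 1.92-fold in kidney to 4.31-fold in liver. Summed over the microRNAs chosen to mark each organ, the share was highest in the organ of that label for all 5 organs. Examples of these sums were 33.8% in liver and 11.6% in heart.

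Mir148a had the widest range of levels over the organs among the 3 members. In the authors' deposited tables it averaged 833682 normalized counts in liver, 4.40% of the total, and stood at rank 5 of 877 genes with reads. Spleen followed with 210884 normalized counts, 1.96% of the total and rank 8 in the authors' deposited table. Heart had 27977 normalized counts (0.329%), kidney 25565 (0.117%) and brain 9833 (0.0610%) in the authors' deposited tables. The share in liver was 72.2 times that in brain. The share depends on the most abundant genes of the organ, since the 3 highest held from 18.5% of the total in brain to 52.0% in liver, and with these left out of the total liver had 122.5 times the share of brain.

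Each step in this order was larger than the spread. Liver exceeded spleen 2.24-fold, a gap of 1.16 on the log2 scale against a combined SD of 0.61 for a library of each organ. Spleen exceeded heart 5.98-fold, heart exceeded kidney 2.80-fold and kidney exceeded brain 1.92-fold, the last with a gap of 0.94 against a combined SD of 0.65. The tables were normalized separately for each organ, so these differences between organs are descriptions and were not tested.

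Mir148b had the narrowest range of the 3 members. Its share of the total was 0.156% in spleen, 0.155% in kidney, 0.131% in liver, 0.0798% in brain and 0.0787% in heart in the authors' deposited tables, a range of 1.99-fold. These shares stand for 16797 normalized counts in spleen, 33700 in kidney, 24721 in liver, 12863 in brain and 6702 in heart. Spleen, kidney and liver did not differ from their neighbours in the order beyond the spread, nor did brain and heart. The step from liver to brain, 1.64-fold, was the only one between neighbours larger than the combined SD, 0.71 against 0.46 on the log2 scale. With the 3 most abundant genes left out of the total, the range was 3.14-fold, from 0.307% in spleen to 0.0979% in brain, and liver exceeded brain 2.78-fold.

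Mir152 was lowest in brain. It held 0.0889% of the total in heart, 0.0852% in kidney, 0.0733% in spleen and 0.0659% in liver, against 0.0109% in brain, in the authors' deposited tables. The authors' means were 7570 normalized counts in heart, 18567 in kidney, 7869 in spleen, 12483 in liver and 1751 in brain. The gaps between neighbours among the first 4 organs, at most 0.22 on the log2 scale, were smaller than the spread, and liver exceeded brain 6.07-fold, a gap of 2.60 against a combined SD of 0.51. With the 3 most abundant genes left out of the total, spleen came first instead of heart, at 0.144%, and liver exceeded brain 10.3-fold.

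**Figure D1:**
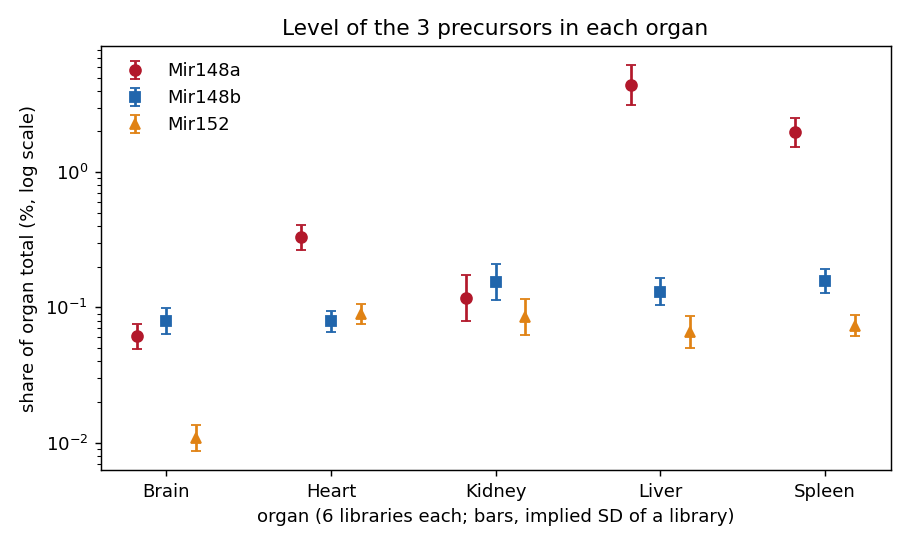
Share of the organ total (percent, log axis) of Mir148a, Mir148b and Mir152 in each organ, as the authors' mean over 6 libraries, with bars of 1 SD of a library implied by the deposited standard error. Mir148a spans from 0.0610% in brain to 4.40% in liver, and Mir148b lies between 0.0787% in heart and 0.156% in spleen, or between 0.0979% in brain and 0.307% in spleen with the 3 most abundant genes left out of the total.

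The member with the highest mean differed between organs. Mir148a gave 95.7% of the family's reads in liver, 89.5% in spleen and 66.2% in heart, from the authors' deposited means. In these organs it exceeded the next member 33.7-fold, 12.6-fold and 3.70-fold, all beyond the spread. Mir148b came first in brain with 52.6% against 40.2% for Mir148a, and in kidney with 43.3% against 32.8%. In both of these organs the lead over Mir148a, 1.31-fold in brain and 1.32-fold in kidney, was smaller than the combined SD, 0.39 against 0.45 and 0.40 against 0.71 on the log2 scale. In kidney the lead of Mir148a over Mir152, 1.38-fold, was also within the spread, whereas Mir148b exceeded Mir152 1.82-fold, a gap of 0.86 against a combined SD of 0.62.

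Mir152 was the smallest member except in heart, where it held 17.9% of the family against 15.9% for Mir148b, a gap within the spread. It reached 23.9% of the family in kidney and was lowest in liver, at 1.43%. Per base of hairpin, the order of the members was unchanged in all 5 organs. In kidney Mir148a and Mir152 came to 258 and 254 normalized counts per base of hairpin. Comparisons between members rest on different sequences, and how evenly the library preparation captured them was not tested.

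The summed family made up 4.598% of the total in liver and 2.19% in spleen, against 0.496% in heart, 0.357% in kidney and 0.152% in brain. Mir148b and Mir152 together held 0.196% in liver and 0.230% in spleen, against 0.240% in kidney, 0.168% in heart and 0.0907% in brain. With the 3 most abundant genes left out of the total, this sum was highest in spleen, at 0.451%, followed by liver at 0.409%, kidney at 0.392%, heart at 0.248% and brain at 0.111%.

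**Figure D2:**
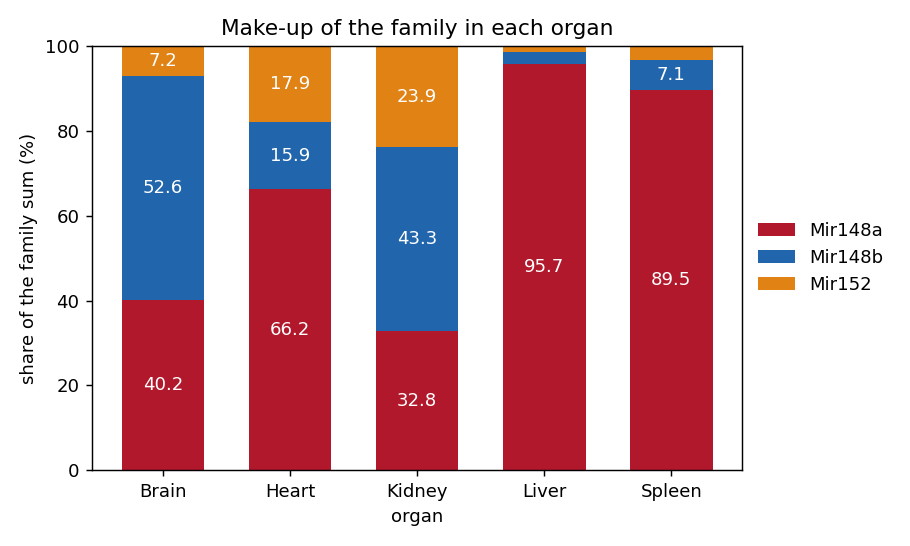
Share of the family sum (percent) held by Mir148a, Mir148b and Mir152 in each organ, from the authors' mean over 6 libraries. Mir148a fills 95.7% of the liver bar and 89.5% of the spleen bar, while Mir148b is the largest segment in brain (52.6%) and kidney (43.3%).

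Since miR-148a is also abundant in pancreas, which lies beside the spleen, the pancreas microRNAs Mir216a, Mir216b, Mir217 and Mir375 were read beside its level. All 4 had reads in spleen and liver. They summed to 0.322% of the total in spleen, against 0.0439% in liver, 0.0269% in brain, 0.0151% in kidney and 0.00144% in heart. Mir375 alone held 0.185% in spleen, 0.0283% in liver, 0.0227% in brain, 0.0149% in kidney and 0.00102% in heart. Mir216b was at 0 in brain, heart and kidney. In spleen the Mir148a mean was 6.09 times the sum of these 4, and in liver it was 100.2 times that sum. Their part in the spleen level of Mir148a was not tested. In bulk organs, more cells of a type and more RNA per cell cannot be told apart.

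No member of the family differed detectably between the Ftsj1-deficient and the wild-type mice in any of the 5 organs. For this comparison each table gives a DESeq2 log2 fold change, here called the log2 value, with its standard error (SE), and the numerator of the fold change is not stated. Positive and negative therefore refer to the sign as deposited, and the 3 libraries that raise the fold change are called the positive side. Signs are compared between organs on the assumption that all 5 tables have the same numerator. Of the 15 tests, 3 members in 5 organs, 0 had a deposited DESeq2 adjusted p below 0.05, and 0 had an unadjusted p below 0.05. Over all genes tested in the same tables, 0.0% passed the adjusted threshold in brain, kidney and spleen, 1.13% in heart and 0.229% in liver, and an unadjusted p below 0.05 was held by 2.23% of genes for brain, 5.33% for heart, 4.5% for kidney, 3.9% for liver and 3.48% for spleen.

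In liver, Mir148a had implied means of 862291 normalized counts on the positive side, against 805073 on the negative one, which together give the deposited mean and fold change. Its log2 fold change was 0.10 (SE 0.40; DESeq2 adjusted p 0.991) in the authors' deposited table, and the 95% interval ran from 0.625-fold to 1.84-fold. Mir148b stood at 23965 normalized counts on the positive side, against 25477 on the negative one, with a log2 value of -0.09 (SE 0.27) in the authors' deposited table. Mir152 had 13232 against 11734 normalized counts and a log2 value of 0.17 (SE 0.33) in the authors' deposited table. No change of any member was detected in liver. The sides did not overlap in relative depth there, with size factors of 0.4999 to 0.729 on the positive side, against 1.45 to 2.15 on the negative one, and the part of depth in these values was not tested.

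The pancreas microRNAs had far larger fold changes in liver than Mir148a. Mir217 had a log2 value of 6.55 (SE 2.65) and Mir375 of 5.42 (SE 1.78) in the authors' deposited table, where neither has a p-value. By default DESeq2 withholds the p-value of a gene with reads where it flags an extreme count in a library. Without values per library it could not be seen which library that would be. These liver values are therefore not read as a difference between the genotypes. The summed level of the 4 in liver was 8323 normalized counts, against 833682 for Mir148a. Their part in the liver level of Mir148a was not tested. In spleen the 4 had log2 fold changes from -0.66 to -0.23 in the authors' deposited table, where Mir148a stood at 0.07. Mir216a has no p-value in liver either. Of these 4 microRNAs 0 passed a DESeq2 adjusted p of 0.05 in any organ, against at most 1.13% of all genes, in heart. Only 1 of the 4 carries an adjusted p in liver, and 2 in heart. In kidney 1, Mir217, had an unadjusted DESeq2 p below 0.05, as did 4.5% of all kidney genes. Its log2 value was 2.22 (SE 1.07), at a mean of 38 normalized counts.

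Spleen gave the second highest level of Mir148a. Its implied means were 215849 normalized counts on the positive side, against 205920 on the negative one, with a log2 value of 0.07 (SE 0.30; DESeq2 adjusted p 0.988) in the authors' deposited table. The 95% interval ran from 0.6996-fold to 1.57-fold. Mir148b had 16047 and 17548 normalized counts on the positive and the negative side, and a log2 value of -0.13 (SE 0.24) in the authors' deposited table. Mir152 had 8036 and 7701 normalized counts, and a log2 value of 0.06 (SE 0.21) in the authors' deposited table. In spleen the sides differed by less than 1 standard error for all 3 members.

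In kidney all 3 members had a positive sign and their largest values. Mir148a had implied means of 30361 normalized counts on the positive side, against 20769 on the negative one, and a log2 value of 0.55 (SE 0.46; DESeq2 unadjusted p 0.236, adjusted p 0.975) in the authors' deposited table. Mir148b had 38781 and 28619 normalized counts and a log2 value of 0.44 (SE 0.36; adjusted p 0.975 by DESeq2) in the authors' deposited table. Mir152 had 20348 and 16786 normalized counts and a log2 value of 0.28 (SE 0.36) in the authors' deposited table. Summed over the family, the positive side held 1.35 times the negative side. The 37 other genes whose kidney means lay within 2-fold of that of Mir148a had a median log2 fold change of 0.10. The members come from the same 6 libraries and are not replicates of each other, and the kidney standard errors were the largest for each of Mir148a, Mir148b and Mir152 among the 5 organs. The interval for Mir148a reached from 0.780-fold to 2.74-fold, so that a change of over 2-fold upward could not be told from no change.

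In heart, Mir148a had implied means of 27456 normalized counts on the positive side, against 28499 on the negative one, and a log2 value of -0.05 (SE 0.26; DESeq2 adjusted p 0.997) in the authors' deposited table. Mir148b had 7139 and 6264 normalized counts and a log2 value of 0.19 (SE 0.22; adjusted p 0.835 by DESeq2), the smallest adjusted p of any member, in the authors' deposited table. Mir152 was nearly level, with 7600 and 7540 normalized counts and a log2 value of 0.01 (SE 0.20) in the authors' deposited table. Heart gave the narrowest interval of the 15, from 0.771-fold to 1.32-fold for Mir152.

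In brain, Mir148b, the member with the highest mean there, had implied means of 13036 normalized counts on the positive side, against 12691 on the negative one, with a log2 value of 0.04 (SE 0.26; DESeq2 adjusted p 0.989) in the authors' deposited table. Mir148a had 10247 and 9419 normalized counts and a log2 value of 0.12 (SE 0.26) in the authors' deposited table. Mir152 had 1819 and 1682 normalized counts and a log2 value of 0.11 (SE 0.26) in the authors' deposited table. The 95% intervals of the 3 members in brain lay between 0.720-fold and 1.54-fold.

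Of the 15 deposited fold changes 12 were positive, with a median of 0.10 on the log2 scale. Relative to the median of genes with a mean of at least 100, 12 were positive. Relative to the mean-weighted average of all genes 14 were, where Mir148b turned positive in liver (0.10) and spleen (0.0018). The 15 values come from the same 6 mice, and these counts of signs were not tested. Mir152 was positive in 5 of 5 organs, Mir148a in 4 and Mir148b in 3. Over all genes with a mean of at least 100 the medians lay between -0.02 in liver and 0.02 in kidney. The dominant member was the same on both sides in each organ. Mir148b made up 51.9% of the family on the positive side in brain and 53.3% on the negative side, and Mir148a made up 95.9% and 95.6% in liver. A second batch supplied 1 wild-type library to each of heart, kidney and liver. The tables do not show which values come from it, so no value within a batch could be had and batch and genotype cannot be told apart there.

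**Figure D3:**
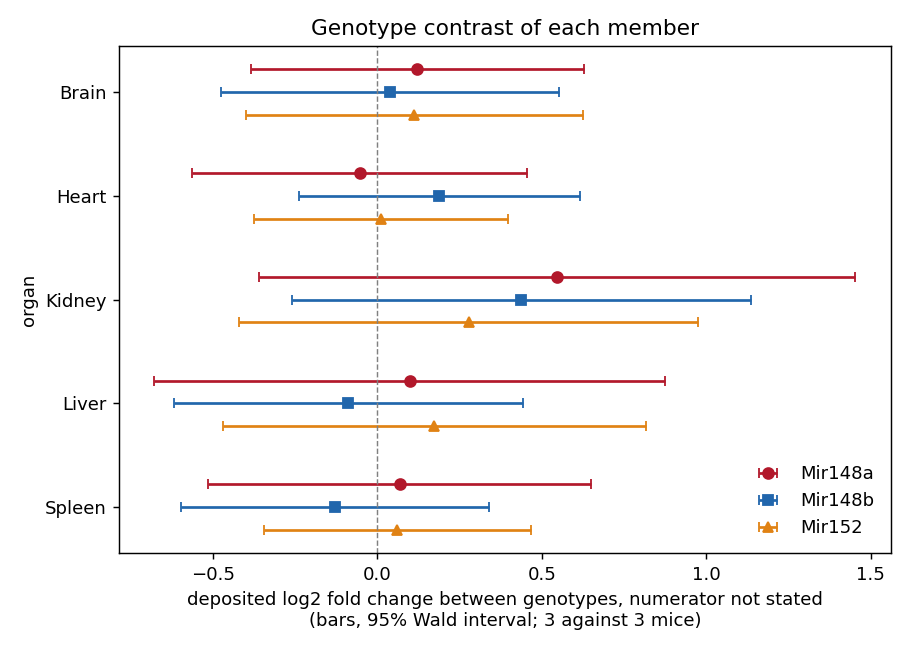
Deposited log2 fold change between the genotypes for each member in each organ (x axis, log2), with 95% Wald intervals from the deposited standard errors, 3 mice against 3. All 15 intervals include 0, and the kidney values of 0.55, 0.44 and 0.28 lie farthest to the right.

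The difference of the genotype fold change between organs was then tested for all genes, with a Wald statistic from the 2 deposited standard errors. Of 30 differences, 3 members in 10 pairs of organs, 0 had a Benjamini-Hochberg adjusted p below 0.05 and 0 had an unadjusted p below 0.05. Over all genes, 0.134% passed in kidney minus liver and 0.0% in each of the other 9 pairs. The difference farthest from 0 for its standard error was that of Mir148b in kidney minus spleen, 0.57 on the log2 scale (SE 0.43; Benjamini-Hochberg adjusted p 0.996), with a 95% interval from -0.27 to 1.41. For Mir148a the farthest pair was heart minus kidney, at -0.60 (SE 0.53) and an interval from -1.64 to 0.44. Mir152 differed by at most 0.27 on the log2 scale, between heart and kidney. The same 6 mice gave all organs and the test takes the organs as independent. These intervals do not show that the organs respond alike.

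Counting error alone would give standard errors of 0.0013 to 0.0282 on the log2 scale at their levels and equal depth, and the deposited standard errors of 0.20 to 0.46 were 9.29 to 307 times larger. The implied SD of a library within a side was 0.24 to 0.57 on the log2 scale.

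The patterns of the members over the organs were compared with those of 323 other genes that had a mean of at least 10 in every organ. The measure is the root mean square difference of log2 shares over the 5 organs, each pattern centred on its mean. Mir152 lay nearest to Mir450-2, Mir450-1 and Mir542, at distances of 0.45, 0.46 and 0.46, against a median of 1.76 over all 323. These 3 genes stand in a row on chromosome X in RefSeq and were, like Mir152, lowest in brain. Mir450-1 and Mir450-2 both give rise to miR-450a, and how reads were divided between them is not given in the sources used here.

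Mir148b lay nearest to Mir3535, Gm54919 and Mir26b, at 0.33, 0.43 and 0.43 against a median of 1.499. The genes nearest to Mir148a were farther from it. They were Mir511, at 1.01, Mir21a, at 1.31, and Mir19b-1, at 1.31, against a median of 2.85. In the RefSeq order of genes Mir511 follows Mrc1, a receptor gene of macrophages, and whether it lies within Mrc1 was not examined. Mir511 held 0.00219% in liver, 0.00206% in spleen, 0.00138% in heart, 0.000141% in kidney and 0.000112% in brain. Like Mir148a, it was low in kidney and brain and high in liver and spleen. Mir511 was not among the 3 nearest when a mean of at least 100 was required in every organ. The share of Mir148a in liver was 13.4 times that in heart. Within the family, Mir148b and Mir152 were 0.99 apart, and Mir148a was 2.17 from Mir148b and 2.01 from Mir152.

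**Figure D4:**
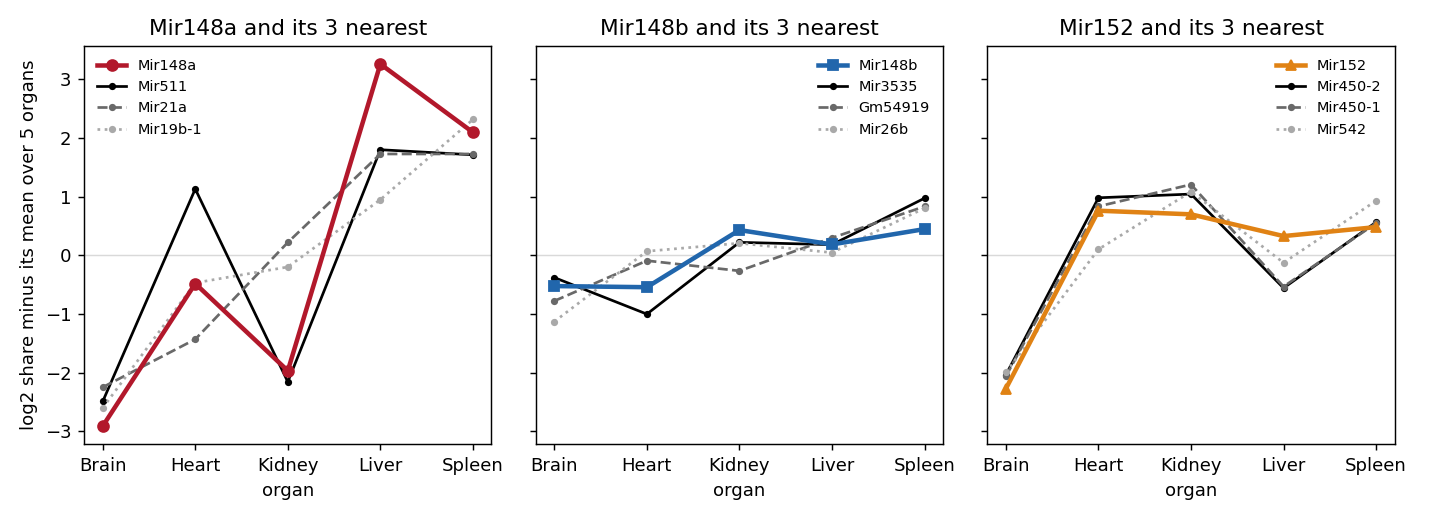
Log2 share of the organ total, centred on the mean over 5 organs, for each member (coloured line) and the 3 genes of nearest pattern (grey lines). The lines of Mir152, Mir450-2, Mir450-1 and Mir542 dip together in brain, and no grey line reaches the liver value of Mir148a.

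Other microRNAs with roles shared by the family were read from 2 lists chosen with earlier results of these data known. Of 13 microRNAs that act in lipid metabolism, such as Mir33, Mir122 and Mir128-1, 0 passed a deposited DESeq2 adjusted p of 0.05 in any organ. Of all genes at most 1.13% passed, in heart. An unadjusted DESeq2 p below 0.05 was held by 0 of the 13, against 2.23% of all genes in brain to 5.33% in heart. Only 11 of the 13 carry an adjusted p in heart. The median log2 fold change of the 13 lay between -0.14 in heart and 0.05 in spleen. The median of all genes with a statistic was 0.16 in heart and 0.00 in spleen. Genes with a mean of at least 100 had a median of -0.005 in heart and -0.009 in spleen. In liver, Mir122, the main microRNA of hepatocytes, averaged 4955195 normalized counts, 26.2% of the total, and had a log2 value of -0.65 (SE 0.51) in the authors' deposited table. Of the 4 miR-29 genes, which target DNA methyltransferases as miR-148a does, 0 passed in any organ, against at most 1.13% of all genes. All 4 were positive in brain, heart and kidney, with medians of 0.14, 0.16 and 0.30. In liver all 4 were negative, with a median of -0.08. In spleen 2 were positive and 2 negative, with a median of 0.02. Each of these miR-29 values was smaller than its SE. The 4 genes were read from the same libraries of an organ and are not replicates of each other. Mir29a, the most abundant of them, had log2 fold changes of 0.05 (SE 0.25) in brain, 0.04 (SE 0.21) in heart and 0.30 (SE 0.38) in kidney. In liver it had -0.04 (SE 0.32) and in spleen 0.08 (SE 0.21), all in the authors' deposited tables.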

How the data were processed

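Small RNA libraries were prepared with a NEXTflex kit, per the labels' protocols. The submitters' processing notes name featureCounts (Subread 2.0.3), GRCm39 and DESeq2, and which aligner, annotation and model were used is not given in the sources used here. For each organ the authors deposited 1 table without values of single libraries. Its mean column is a signal, DESeq2's average of depth-scaled counts, per the file headers. The deposited fold change and standard error are on the log2 scale, and the deposited Wald statistic is a score, their ratio. Each deposited p-value, raw or adjusted, is that of the Wald test, per the file headers. The 1 row without a name was left out, at most 1.82e-05% of an organ's total. There were 0 unused columns of values per sample. The heart table adjusts 355 of its 1107 p-values.

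The members and lists were chosen with earlier results of these data known. Named genes were the members in every organ, the 3 genes of nearest pattern, and of each list those past 0.05 or else the 2 of highest mean. Mir33, Mir128-1, Mir216a and Mir216b were named as examples of a list, and so were chosen after their values were seen. The implied SD of a library is the standard error times the square root of 3/2, and implied side means solve the deposited mean and fold change for 3 libraries each. Size factors were found from means under 1 at a tolerance of 1e-09, which 6 factors per organ explained for 228 to 355 genes. Differences between organs were adjusted over all 734 to 959 genes of a pair. On simulated data for heart minus spleen (959 genes), 59 of 200 genes changed by log2 1 were recovered, with 5 false calls. Of 200 changed by log2 3, 183 were recovered, with 8 false calls. The 200 were drawn from genes with an SE below 1 in both organs. In the real data 0 of 959 genes passed for this pair, and recovery with few changed genes was not simulated. Sequences and neighbours are from RefSeq on GRCm38.p6. The hairpin coordinates of that build were overlapped with the GENCODE annotation to find host genes. Alternatives were the total used for shares, the set of genes for the adjustment, the threshold, the centring of fold changes and the hairpin length. Python 3.11.15, pandas 2.3.3, numpy 2.4.6, scipy 1.17.1 and matplotlib 3.10.9 were used.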

Additional observations from a re-analysis of the deposited data

How the results depend on the processing

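In all 5 organs, 0 members passed with the adjustment over all genes with a p, over genes with a mean of at least 10, or at an adjusted p below 0.1, and 0 of 30 differences between organs passed with either alternative. Without the 3 most abundant genes of each organ the family share was 0.733% for heart, 0.584% for kidney, 9.58% for liver and 4.31% for spleen, and the range over organs was 122.5-fold for Mir148a, 3.14-fold for Mir148b and 10.8-fold for Mir152, against 72.2-fold, 1.99-fold and 8.19-fold with the whole total. The dominant member was the same with the mean divided by hairpin length, an alternative chosen after seeing the data. With fold changes taken relative to the mean-weighted average of all genes, which was -0.20 for brain, -0.04 for heart, 0.18 for kidney, -0.19 for liver and -0.13 for spleen, Mir148b turned positive in liver (0.10) and in spleen (0.0018). The cause was not tested. With a mean of at least 100 required in every organ, 1 of the 3 genes nearest to Mir148a was shared, and Mir21a, Mir101b and Mir19b-2 came first. That rule leaves fewer genes to compare. No paired analysis was possible because the tables hold no values per mouse, and for the same reason no library could be left out in turn.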
